A study of Mus musculus with 36 samples.

Results

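Liver and epididymal white adipose tissue (eWAT) of the same diet groups were compared gene by gene for how far their responses to high-fat feeding differed. The genes described are the 13206 present in both deposited count tables, out of 17536 present in at least 1 of them. The liver table lists 14052 genes and the table for eWAT holds 16690, so 846 were listed for liver alone and 3484 for eWAT alone. For each shared gene the quantity tested was the interaction: the log2 fold change of high-fat over low-fat diet in eWAT less the same log2 fold change in liver. A difference of 1 therefore means that the eWAT ratio was 2 times the liver ratio. Levels are given in CPM, a gene's count scaled to the total of its library over the shared genes and normalised with edgeR.

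All mice were wild-type C57BL/6 males of the founder (F0) generation, 24 weeks old at collection. They ate chow until 6 weeks of age. For the next 18 weeks the LF mice ate a low-fat diet and the HF mice a high-fat diet. Each diet and tissue has 6 libraries, 24 in all, from a series of 36 libraries whose other 12 come from mice switched from high-fat to low-fat diet. RNA from whole tissue was sequenced, so in each tissue a smaller number of cells of a type and less RNA per cell cannot be told apart. The labels do not say whether each library is a separate mouse, nor whether a liver and an eWAT library with the same number come from 1 mouse, so p-values measure the spread between libraries.

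Liver and white fat hold many of the same metabolic enzymes and use them differently. Liver burns fatty acids, makes ketone bodies, exports lipoproteins and secretes most plasma proteins, including those of the acute phase. White adipocytes store fatty acids as triglyceride, release them in fasting, and are an important site of branched-chain amino acid breakdown. In mice, long high-fat feeding is known to fill hepatocytes with lipid droplets and to bring macrophages into epididymal fat, where they gather around dying adipocytes.

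Counts over the shared genes ran from 10311165 to 30101978 per library. Of the libraries, 2 sets stood apart from their groups. Liver LF libraries 1 to 4 had Mt2, which encodes a stress-induced metallothionein, at 326 to 394 CPM of the liver table, against 2.02 CPM in LF library 5, 0.874 CPM in LF library 6 and 1.63 to 10 CPM in the HF libraries. Their summed acute-phase genes were at 47600 to 72700 CPM, against 28820 CPM in LF library 5, 23590 CPM in LF library 6 and 21390 to 31290 CPM in the HF libraries. LF libraries 1 and 2 also had the clock output gene Dbp at 4.81 CPM or less, against 59.7 CPM or more in the other liver libraries. In eWAT, LF libraries 3, 4 and 5 carried Hnf4a, which encodes an epithelial and hepatocyte transcription factor that adipocytes lack, at 5.34, 90.6 and 49.6 CPM. HF library 1 had the largest sum of epididymal and sperm markers (682 CPM, 6 of the 23 markers listed in the eWAT table and none in the liver table). LF libraries 3, 4 and 5 were at 221, 172 and 93.2 CPM. Libraries outside this set carried these markers too: LF libraries 1, 2 and 6 were at 0.381, 107 and 45.3 CPM, and HF libraries 2 to 6 at 0.185 to 40.5 CPM. Both tissues carried their defining markers: 16 of 16 hepatocyte markers in the liver table and 12 of 12 adipocyte markers in the eWAT table. The counts were therefore repeated with 4 exclusions: liver LF libraries 1 and 2 alone, all 4 of liver LF libraries 1 to 4, the eWAT set of LF libraries 3, 4 and 5 with HF library 1, and the latter 2 sets together. What sets these libraries apart was not tested. Moves of the genes and lists used to pick them (Mt2, Dbp, Hnf4a, acute-phase genes and epididymal markers) follow at least in part from that choice.

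The response to the high-fat diet differed between the tissues for 5413 of 13206 genes (41.0%) in edgeR's quasi-likelihood test at a Benjamini-Hochberg adjusted p of 0.05. Of these, 2503 (19%) were higher in eWAT relative to liver and 2910 (22.0%) lower. Within eWAT the diet changed 5440 genes (41.2%), of which 2531 rose (19.2%) and 2909 fell (22.0%). Within liver it changed 3565 (27%), of which 1834 rose (13.9%) and 1731 fell (13.1%). A gene is called opposite when the difference and both tissue responses passed and the responses had different signs. This held for 729 genes (5.52%): 287 (2.17%) rose in eWAT and fell in liver, and 442 (3.35%) fell in eWAT and rose in liver. A gene is called tissue-limited when the difference and 1 tissue's response passed, and the other tissue's did not, which does not show that it was unaffected there. There were 2746 eWAT-limited genes (20.8%), of which 1263 (9.56%) were higher and 1483 (11.2%) lower in eWAT relative to liver. There were 1449 liver-limited genes (11%), of which 749 (5.67%) were higher and 700 (5.3%) lower in eWAT relative to liver. Another 45 genes (0.341%) changed in the same direction in both tissues by unequal amounts, and 444 (3.36%) differed although neither tissue's response passed. Across the 13206 genes the eWAT and liver log2 fold changes had a Pearson correlation of -0.023, a description across genes, which are not independent replicates.

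**Figure D1:**
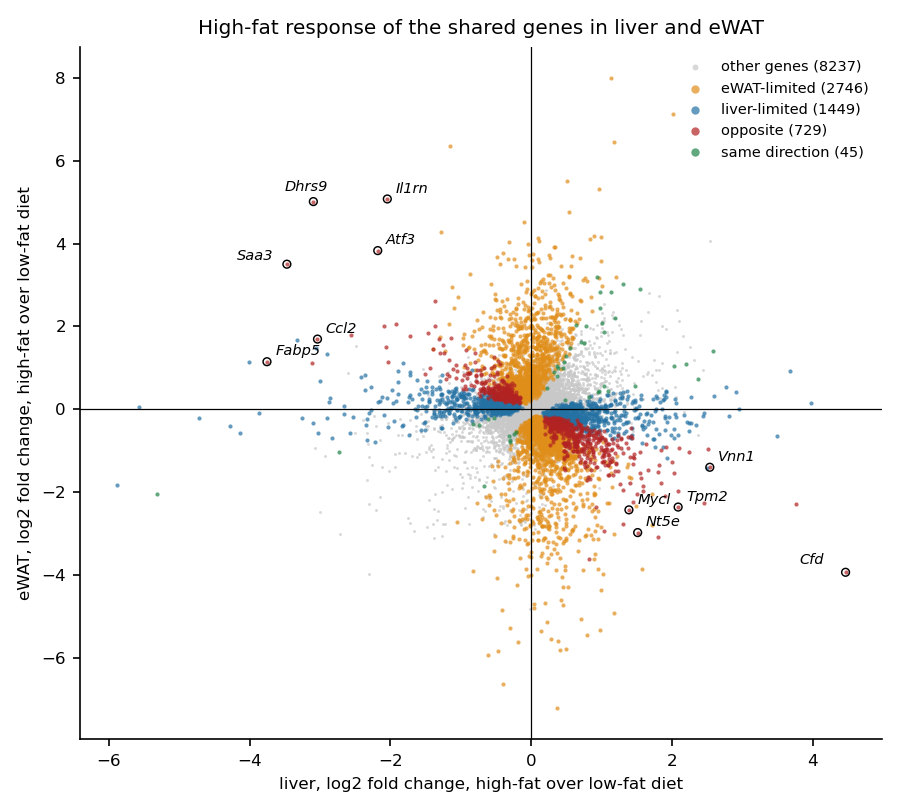
Each point is 1 of the 13206 shared genes, with the liver log2 fold change (HF over LF) on the x axis and the eWAT log2 fold change on the y axis, coloured by response class. The 729 opposite genes lie in the upper left and lower right of the plot, and the 11 labelled genes are among those with the largest difference in each direction at a mean of at least 4 CPM in both tissues.

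The liver side of these counts was much smaller without LF libraries 1 to 4. Without them, with 2 LF libraries left in liver, the difference passed for 1983 genes (15%), opposite responses for 16 (0.121%), eWAT-limited for 1672 (12.7%) and liver-limited for 66 (0.5%), and the liver response for 75 genes that rose (0.568%) and 62 that fell (0.469%). Leaving out liver LF libraries 1 and 2 gave 322 opposite (2.44%), 2932 eWAT-limited (22.2%) and 690 liver-limited genes (5.22%). Leaving out the eWAT set gave 455 opposite (3.45%), 2033 eWAT-limited (15.4%) and 1402 liver-limited genes (10.6%). Leaving out that set together with liver LF libraries 1 to 4 gave 13 opposite (0.0984%), 1112 eWAT-limited (8.42%) and 42 liver-limited genes (0.318%). The median liver log2 fold change of the 287 genes that rose in eWAT and fell in liver went from -0.43 to -0.23 without liver LF libraries 1 to 4, and that of the 442 in the other direction from 0.62 to 0.35. Of the 287, 267 kept a negative liver value and 218 a called difference. Of the 442, 441 kept a positive liver value and 360 a called difference. The fits share all other libraries, so these counts describe how far the values moved. With 2 liver LF libraries left the test also has less power, and how much of the loss this gives was not tested.

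**Figure D2:**
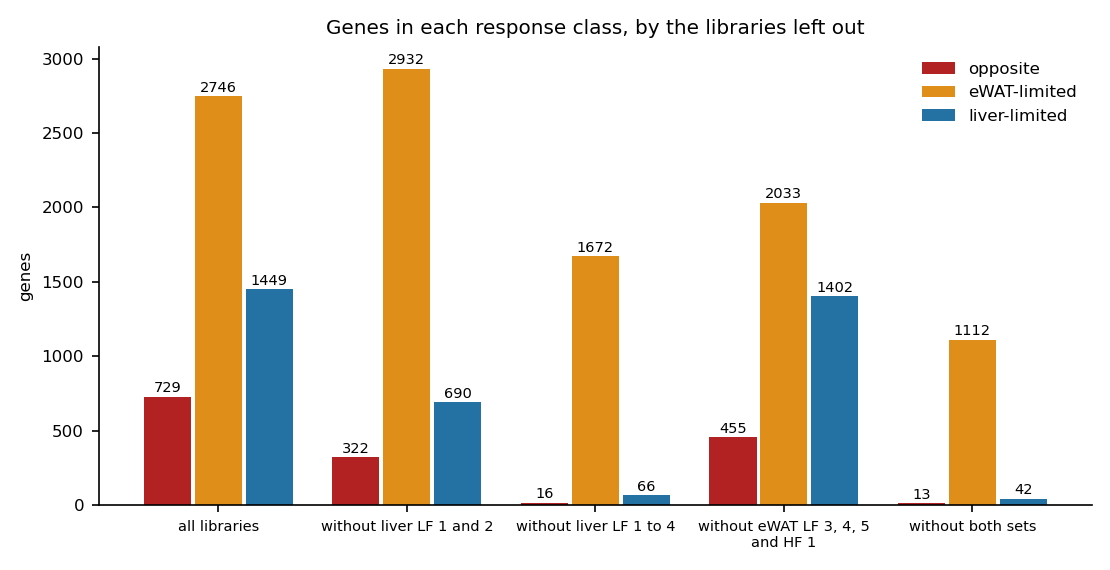
Bars give the number of genes (y axis) called opposite, eWAT-limited and liver-limited with all libraries and with each set of libraries left out (x axis). Opposite genes go from 729 to 16 and liver-limited genes from 1449 to 66 without liver LF libraries 1 to 4, while eWAT-limited genes go from 2746 to 1672.

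Among the genes that rose in eWAT and fell in liver, Dhrs9, Il1rn, Saa3, Atf3, Fabp5 and Ccl2 had the largest differences. Dhrs9 (chr2:69380445-69404533), which encodes a retinol and steroid dehydrogenase, was at 3.23 to 18.8 CPM (median 8.06) in LF liver and 0.341 to 1.68 CPM (median 1.22) in HF liver. In eWAT it was at 0.0917 to 1.24 CPM (median 0.517) on the low-fat diet and 2.40 to 45.1 CPM (median 12.7) on the high-fat diet. The diet groups did not overlap in either tissue, as was so for 17.4% of all shared genes in eWAT and 10.4% in liver. The difference was 8.11 ± 0.96 (SE; adjusted p = 1.04e-05), made of 5.01 in eWAT and -3.10 in liver, and it was 6.53 without liver LF libraries 1 to 4.

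Fabp5 (chr3:10012548-10016607) encodes a fatty acid-binding protein of macrophages, adipocytes and epithelia. Its level in liver ran from 49.1 to 270.4 CPM (median 168) on the low-fat diet and from 4.09 to 25 CPM (median 10.8) on the high-fat diet. In eWAT the range was 52.3 to 126 CPM (median 86.9) on the low-fat diet and 134 to 229.5 CPM (median 194) on the high-fat diet. Neither tissue's groups overlapped, so the gene was lower in every HF liver library and higher in every HF eWAT library. The difference was 4.90 ± 0.59 (adjusted p = 1.18e-05), with -3.76 in liver and 1.15 in eWAT, and the liver value was -2.64 without liver LF libraries 1 to 4.

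The other 4 are genes of inflammation and stress, and their liver value did not stay negative without LF libraries 1 to 4. Il1rn (chr2:24336853-24351494) encodes the secreted antagonist of the interleukin-1 receptor. It was at 0.504 to 1.75 CPM (median 0.712) in LF eWAT and 7.88 to 84.3 CPM (median 20.1) in HF eWAT, with no overlap. In liver, LF libraries 1 to 4 were at 17.9 to 44.0 CPM, LF libraries 5 and 6 at 1.79 and 1.68 CPM, and HF libraries at 1.64 to 7.78 CPM (median 5.17). The difference of 7.12 ± 1.01 (adjusted p = 4.94e-05) became 3.61 without those 4 libraries, and the liver value turned from -2.05 to 1.46.

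Saa3 (chr7:46711998-46715700) encodes a serum amyloid A protein made outside the liver as well as in it. In LF eWAT it was at 1.99 to 16.5 CPM (median 3.37) and in HF eWAT at 24.8 to 86.2 CPM (median 63.5), again with no overlap. Liver LF libraries 1 to 4 were at 57.0 to 154 CPM, LF libraries 5 and 6 at 1.87 and 4.31 CPM, and HF libraries at 4.26 to 9.35 CPM (median 6.74). The difference was 6.97 ± 1.04 (adjusted p = 7.12e-05). Without the 4 libraries it was 2.39 (adjusted p = 0.0502) and the liver value turned from -3.47 to 1.11.

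Atf3 (chr1:191170296-191218039), a stress-induced transcription factor gene, was at 4.22 to 13.4 CPM (median 5.44) in LF eWAT and 19.8 to 246 CPM (median 83.4) in HF eWAT. In liver it was at 1.39 to 52.6 CPM (median 4.81) on the low-fat diet and 1.09 to 7.05 CPM (median 2.0) on the high-fat diet, and the groups overlapped. It was highest in liver LF libraries 1 and 2, at 52.6 and 22.5 CPM, and at 1.39 to 5.67 CPM in the other liver LF libraries. Its difference was 6.01 ± 1.07 (adjusted p = 0.000275), and the liver value went from -2.18 to 0.31 without LF libraries 1 to 4. Ccl2 (chr11:82035571-82037453), which encodes the chemokine that draws monocytes into tissue, overlapped between diets in both tissues. It was at 0.439 to 34.9 CPM (median 6.19) in LF liver, 0.395 to 2.61 CPM (median 1.30) in HF liver, 1.81 to 19.1 CPM (median 5.88) in LF eWAT and 10.8 to 58.4 CPM (median 26) in HF eWAT. In liver LF libraries 1 and 2 it was at 34.9 and 23.5 CPM, and in the other liver LF libraries at 0.439 to 7.2 CPM. The difference of 4.73 ± 1.03 (adjusted p = 0.00131) did not pass without liver LF libraries 1 to 4 (1.38, adjusted p = 0.374).

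Among the genes that fell in eWAT and rose in liver, Cfd, Nt5e, Tpm2, Vnn1 and Mycl were among those with the largest differences. Cfd (chr10:79890853-79892655) encodes adipsin, the complement factor D that adipocytes secrete. In eWAT it was at 4042 to 13240 CPM (median 8772) on the low-fat diet and 117 to 1194 CPM (median 572) on the high-fat diet, with no overlap. In liver it was at 0.219 to 6.03 CPM (median 0.485) on the low-fat diet and 1.86 to 101 CPM (median 17.6) on the high-fat diet. Only LF library 5, at 6.03 CPM, reached into the HF range, whose 2 lowest members were HF libraries 5 and 6 at 1.86 and 1.97 CPM. The difference was -8.40 ± 1.35 (adjusted p = 0.000125), made of -3.93 in eWAT and 4.47 in liver, and it was -7.18 without liver LF libraries 1 to 4.

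Mycl (chr4:122995652-123002485), a MYC family transcription factor gene, also separated the diets in both tissues. It was at 2.71 to 19.1 CPM (median 6.54) in LF liver, 21.6 to 32.1 CPM (median 23) in HF liver, 16.8 to 51.2 CPM (median 26.4) in LF eWAT and 2.86 to 9.35 CPM (median 5.18) in HF eWAT. Its difference was -3.81 ± 0.57 (adjusted p = 7.52e-05), and the liver value went from 1.39 to 0.43 without LF libraries 1 to 4. Vnn1 (chr10:23894688-23905343) encodes pantetheinase, a known PPARA target in liver. It was at 7.30 to 65.4 CPM (median 13.2) in LF liver and 50.7 to 189 CPM (median 138) in HF liver, where libraries 5 and 6 were the lowest at 50.7 and 61.2 CPM. In eWAT it went from 6.10 to 14 CPM (median 9.15) on the low-fat diet to 2.08 to 5.88 CPM (median 3.44), and the difference was -3.94 ± 0.65 (adjusted p = 0.000155).

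Nt5e (chr9:88327197-88372092) encodes CD73, the surface enzyme that makes adenosine, and Tpm2 (chr4:43514711-43523765) a tropomyosin of muscle and stress fibres. Nt5e was at 2.18 to 7.32 CPM (median 3.37) in LF liver, 6.43 to 19.2 CPM (median 8.11) in HF liver, 4.62 to 41.5 CPM (median 15.3) in LF eWAT and 1.38 to 3.70 CPM (median 1.83) in HF eWAT. Its difference was -4.49 ± 0.68 (adjusted p = 8.62e-05). Tpm2 was at 1.37 to 6.39 CPM (median 3.64) in LF liver, 5.45 to 27 CPM (median 16.7) in HF liver, 24.3 to 463 CPM (median 50.3) in LF eWAT and 13.8 to 27.5 CPM (median 23.4) in HF eWAT. Its value of 463 CPM came from eWAT LF library 3, the other 5 being at 24.3 to 50.6 CPM. The difference of -4.45 ± 0.90 (adjusted p = 0.000705) was -2.90 without the eWAT set, where the eWAT value went from -2.36 to -0.86, and for Nt5e from -2.97 to -1.35.

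**Figure D3:**
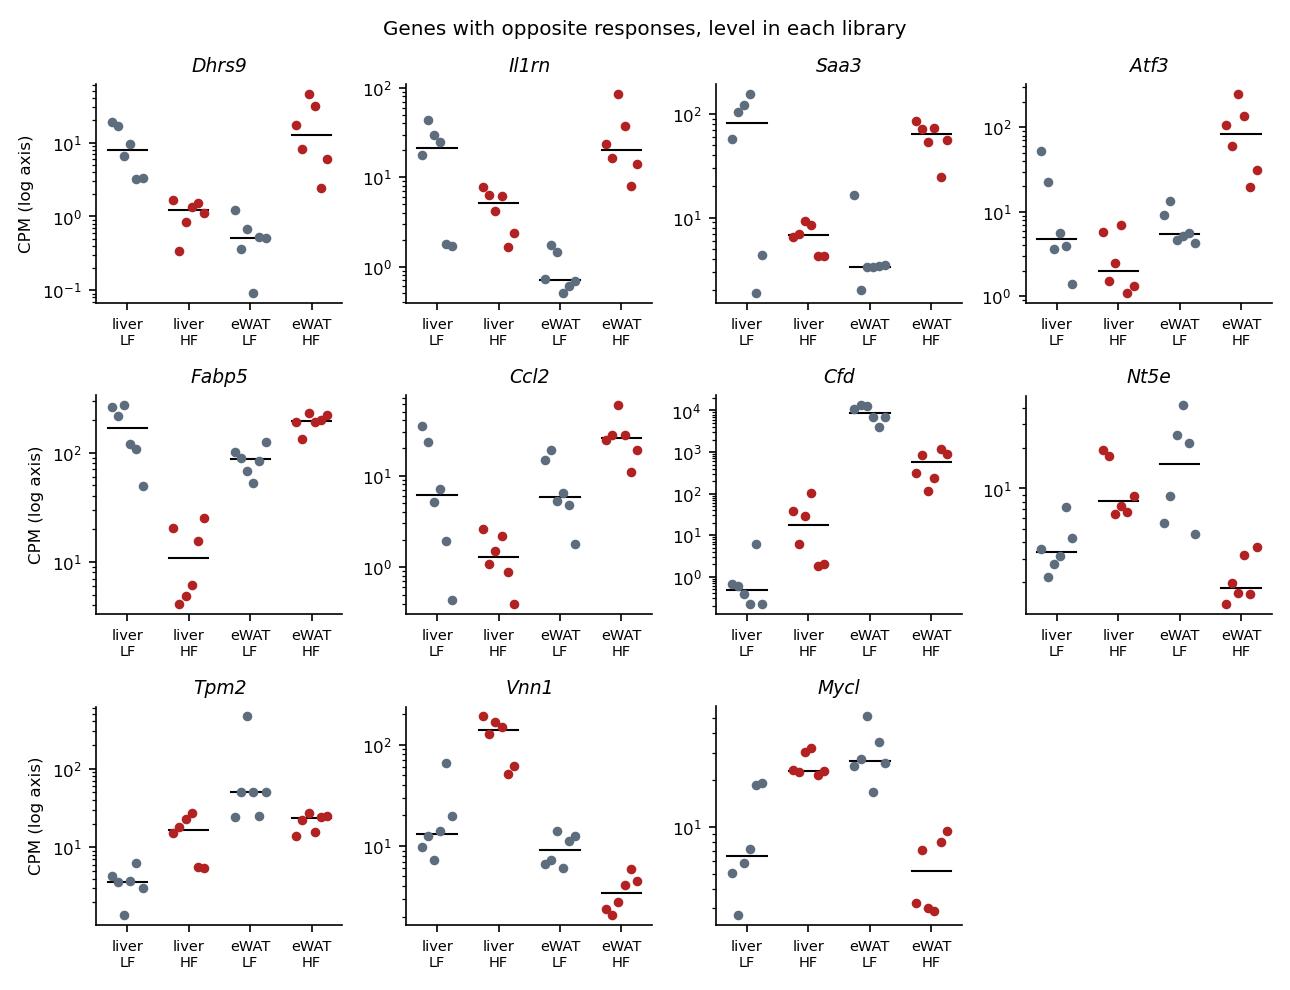
Each panel shows 1 gene's level in CPM (log y axis) in the 6 libraries of each tissue and diet (x axis, points in order of library number), with the median as a line. For Il1rn liver LF libraries 5 and 6 sit among the HF libraries, and for Saa3 LF library 6 does and LF library 5 lies below them. Fabp5, Mycl and Dhrs9 separate the diets in both tissues.

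Of the 729 opposite genes, 9 stayed opposite without liver LF libraries 1 to 4: Nmnat3, Clic4, Ppm1k, Miga2, Fabp5, Efna5, Cntnap1, Crybg3 and Bin1. They are named after their values were seen, except Fabp5 and Ppm1k. Nmnat3, which makes NAD in mitochondria, had a difference of -2.12 ± 0.24 with all libraries and -1.88 ± 0.31 without those 4. Miga2 encodes a protein that links mitochondria to the endoplasmic reticulum and lipid droplets, and its difference was -2.06 ± 0.25 with all libraries and -1.81 ± 0.29 without the 4. Efna5, an ephrin ligand gene, went from -1.87 ± 0.25 to -1.98 ± 0.32. In the other direction Clic4, a chloride channel family gene, had 0.97 ± 0.11 and 0.89 ± 0.13. Nmnat3, Clic4, Ppm1k, Miga2 and Efna5 were also opposite under each of the other sets left out. Ppm1k encodes the phosphatase that activates branched-chain ketoacid dehydrogenase. It was at 44.2 to 82.8 CPM (median 63.8) in LF liver and 90.8 to 143 CPM (median 123) in HF liver, and at 10.6 to 14.1 CPM (median 11.8) in LF eWAT and 6.37 to 9.32 CPM (median 7.57) in HF eWAT, without overlap in either tissue. Its difference was -1.57 ± 0.18 (adjusted p = 9.39e-06) with all libraries and -1.50 ± 0.20 (adjusted p = 0.000619) without the 4.

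Of 46 gene lists, 44 had at least 5 shared members. The 30 whose share of members called in 1 direction was at least 1.5 times that of all shared genes are described by function. Each is read against the 19% of all shared genes that were called higher, the 22.0% called lower, the 19.2% that rose and 22.0% that fell in eWAT, the 13.9% that rose and 13.1% that fell in liver, and the medians of all shared genes (-0.04 for the difference, -0.035 in eWAT and 0.04 in liver). Leaving out liver LF libraries 1 to 4, the shares of all genes are 7.1% higher and 7.92% lower, with 0.568% that rose and 0.469% that fell in liver. Without libraries 1 and 2 alone, 2044 of all 13206 genes were higher and 2353 lower, and 798 rose and 846 fell in liver. Without the eWAT set 2397 of 13206 were higher and 1995 lower, and 2071 rose and 1840 fell in eWAT. Fatty acid oxidation had 21 of 30 members lower in eWAT relative to liver and none higher, with a median of -0.13 in eWAT and 0.46 in liver. In liver 21 members rose and none fell, but only 1 rose without liver LF libraries 1 to 4 and 12 without libraries 1 and 2. In eWAT 12 fell and 1, Cpt1a, rose. Of these 30 members, 9 were called lower without liver LF libraries 1 to 4. The mean log2 level of the list, set to the LF mean of each tissue, was 0.33 to 0.65 in the 6 HF liver libraries and -0.25 to 0.28 in the LF liver libraries, without overlap.

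Pex11a, which encodes a peroxisome division factor, showed the pattern in both tissues. It was at 92.0 to 140.0 CPM (median 125) in LF liver and 156 to 331 CPM (median 226) in HF liver, and at 46.5 to 87.4 CPM (median 74.7) in LF eWAT and 23.9 to 51.1 CPM (median 35.5) in HF eWAT. The liver groups did not overlap and the eWAT groups overlapped. The difference was -1.81 ± 0.28 (adjusted p = 9.85e-05), and -1.66 without liver LF libraries 1 to 4. The enoyl-CoA isomerases Eci1 (-1.61 ± 0.26) and Ech1 (-1.25 ± 0.21) were opposite as well. Cpt1a, the entry step of long-chain fatty acids into mitochondria, had values of 0.99 in eWAT and 0.50 in liver, and its difference of 0.49 ± 0.22 did not pass (adjusted p = 0.0745). In the ketone body list 4 of 8 members were called lower and 1 higher, and 1 was called lower without liver LF libraries 1 to 4. The eWAT median of this list went from -0.19 to 0.34 without the eWAT set. Acat1, which makes acetoacetyl-CoA, was opposite (-1.44 ± 0.28).

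Genes that build, store and break down triglyceride were lower in eWAT relative to liver in 11 of 18 members and higher in none (medians -0.75 in eWAT and 0.34 in liver), and in 6 of 18 without liver LF libraries 1 to 4. Mogat1, a monoacylglycerol acyltransferase gene known to be induced in fatty liver, had the largest difference in the list, -6.04 ± 0.99 (adjusted p = 0.000136). It was at 0 to 1.15 CPM (median 0.203) in LF liver and 0.547 to 9.93 CPM (median 2.22) in HF liver, against 27.9 to 58.7 CPM (median 40.3) in LF eWAT and 1.42 to 17.7 CPM (median 7.53) in HF eWAT. The eWAT groups did not overlap and the liver groups did. Gpat3, which begins glycerolipid synthesis, had a difference of -3.27 ± 0.54, with 2.24 in liver and -1.03 in eWAT. Lipe, which encodes hormone-sensitive lipase, was at 1473 to 2679 CPM (median 2164) in LF eWAT and 555 to 1741 CPM (median 1125) in HF eWAT, and at 15.9 to 23 CPM (median 20.3) and 36.3 to 51.7 CPM (median 41.7) in LF and HF liver. Its difference was -1.95 ± 0.31 with all libraries and -1.96 without liver LF libraries 1 to 4.

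The list of lipid droplet and fatty acid uptake genes had 12 of 19 shared members called lower and 3 higher, with medians of -0.25 in eWAT and 0.50 in liver. Without liver LF libraries 1 to 4 the counts were 2 lower and 1 higher, and without the eWAT set 7 lower and 2 higher, with an eWAT median of 0.15. Cd36, the fatty acid translocase, was at 11.6 to 46.8 CPM (median 19.5) in LF liver and 40.2 to 287 CPM (median 139) in HF liver, while in eWAT it was at 2055 to 3434 CPM and 3188 to 3914 CPM. Its difference of -2.27 ± 0.52 (adjusted p = 0.00199) was liver-limited. Cidec, a lipid droplet fusion protein gene, was liver-limited too, at -2.53 ± 0.80, with 2.22 in liver and -0.32 in eWAT. Slc27a1, a fatty acid transporter gene, was opposite: 7.31 to 16.4 CPM (median 9.88) in LF liver and 23.9 to 35.5 CPM (median 25.7) in HF liver, against 702 to 1328 CPM (median 864) in LF eWAT and 378 to 776 CPM (median 526) in HF eWAT. Its difference was -2.16 ± 0.26 (adjusted p = 1.27e-05).

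De novo lipogenesis, the making of fatty acids from acetyl-CoA, fell in eWAT in 16 of 21 members, against 22.0% of all shared genes, while 1 member rose and 1 fell in liver (none without liver LF libraries 1 to 4). The difference was called lower for 14 members and higher for 1, and lower for 4 without liver LF libraries 1 to 4 (medians -1.30 in eWAT and 0.12 in liver). Acaca, which makes malonyl-CoA, had -2.66 in eWAT and -0.71 in liver, a difference of -1.95 ± 0.40 (adjusted p = 0.000867). Fasn, the fatty acid synthase gene, had -1.66 in eWAT and -0.32 in liver, a difference of -1.34 ± 0.43. Thrsp, a lipogenic co-factor gene, was at 778 to 2164 CPM (median 1218) in LF eWAT and 90.4 to 730.2 CPM (median 286) in HF eWAT, without overlap. Srebf1, the lipogenic transcription factor gene, was the opposite member, with 1.28 in liver and -0.71 in eWAT. Scd1, the stearoyl-CoA desaturase gene, did not differ beyond its error: -0.97 in eWAT and -1.05 in liver, a difference of 0.08 ± 0.58.

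Branched-chain amino acid breakdown differed for all 22 of its members, all lower in eWAT relative to liver. In eWAT 20 of the 22 fell, and in liver 5 rose and none fell (medians -0.80 and 0.36), with 1 rising without liver LF libraries 1 to 4. Of the 22, 11 were called lower without liver LF libraries 1 to 4. The mean log2 level of the list was -1.42 to -0.32 in HF eWAT and -0.31 to 0.25 in LF eWAT, and HF libraries 5 and 6 lay nearest the LF libraries. Hsd17b10, an isoleucine pathway dehydrogenase gene, was opposite without overlap in either tissue. It was at 105 to 199 CPM (median 129) in LF liver and 201 to 359.5 CPM (median 287) in HF liver, and at 68.6 to 117 CPM (median 96.9) in LF eWAT and 32.3 to 61.8 CPM (median 46.5) in HF eWAT, a difference of -2.07 ± 0.26 (adjusted p = 1.68e-05). Aldh6a1, of valine breakdown, was eWAT-limited at -1.73 ± 0.31, and Bckdha, a subunit of the ketoacid dehydrogenase, at -1.33 ± 0.24.

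Pyruvate entry and the TCA cycle had 21 of 28 members lower and none higher, and 14 of 28 without liver LF libraries 1 to 4. The medians were -0.52 in eWAT, where 22 members fell and none rose, and 0.16 in liver, where 7 rose and 1 fell. Neither a rise nor a fall passed in liver for any of the 28 without liver LF libraries 1 to 4. Pdk2, a kinase that turns off pyruvate dehydrogenase, was at 92.8 to 167 CPM (median 125) in LF liver and 204 to 273 CPM (median 226) in HF liver. In eWAT it was at 106 to 185 CPM (median 156) and 34.9 to 77.7 CPM (median 56.7), so that neither tissue's groups overlapped. Its difference was -2.30 ± 0.25 (adjusted p = 5.98e-06). Suclg2, a succinyl-CoA ligase subunit gene, had a difference of -1.46 ± 0.19, and Pdha1, of the pyruvate dehydrogenase core, -1.31 ± 0.21. Pdk4, another pyruvate dehydrogenase kinase gene, had 0.73 ± 0.64 and did not pass.

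Of the 73 nuclear-encoded subunits of the respiratory chain, 56 were eWAT-limited. In eWAT 66 of 73 fell and none rose (median -0.45). In liver none of the 73 was called in either direction (median 0.05). The difference was lower for 57 of 73 and for 18 of 73 without liver LF libraries 1 to 4. Ndufa5, a complex I subunit gene, was at 28.5 to 41.6 CPM (median 34.6) in LF eWAT and 15.6 to 22.9 CPM (median 20.1) in HF eWAT, and at 39.7 to 50.5 CPM and 45.1 to 58.4 CPM in LF and HF liver, a difference of -0.97 ± 0.14. Uqcrc2, of complex III, had -0.93 ± 0.15. The mitochondrial ribosome had 37 of 77 members lower and none higher (12 of 77 without liver LF libraries 1 to 4), with medians of -0.22 in eWAT and 0.08 in liver.

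Among the regulators of mitochondria and thermogenesis, 7 of 17 shared members were called lower and 2 higher (3 and 0 without liver LF libraries 1 to 4). Ppara, the receptor that drives fatty acid oxidation in liver, was opposite, with 0.59 in liver and -1.01 in eWAT (difference -1.60 ± 0.35). Pparg, the master regulator of adipocytes, was liver-limited, with 1.61 in liver and -0.43 in eWAT (difference -2.04 ± 0.43). Ppargc1a, a co-activator of mitochondrial genes, had -1.26 in eWAT and -0.26 in liver, and its difference of -1.01 ± 0.43 did not pass (adjusted p = 0.0647).

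Of the 7 adipocyte markers present in both tables, all 7 were lower in eWAT relative to liver (3 of 7 without liver LF libraries 1 to 4), with medians of -0.84 in eWAT and 1.11 in liver. Over all 12 markers in the eWAT table the summed level was 47630 to 76450 CPM in LF eWAT and 15110 to 51700 CPM in HF eWAT. In liver, 7 of the 12 were in the table and summed to 866 to 3778 CPM in LF and 2987 to 5531 CPM in HF libraries. Most of this liver sum came from members other than Cfd, Lipe, Cidec, Pparg and Adrb3. Each of those was at 23 CPM or less in LF liver and 193 CPM or less in HF liver. Lep and Adipoq, the genes of leptin and adiponectin, were not among the shared genes. Hepatocyte markers fell in eWAT in 16 of 16 members, but in 1 of 16 without the eWAT set, where their eWAT median went from -2.75 to 0.35. That set was picked in part by Hnf4a, a member of this list, so the move follows at least in part from that choice. Apart from Cyp2e1, which fat expresses, the other 15 summed to 38.2 to 1484 CPM in LF eWAT, with libraries 3, 4 and 5 at 691, 476 and 1484 CPM, and to 8.78 to 216 CPM in HF eWAT. The part of these cell-type markers in the results above was not tested.

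**Figure D4:**
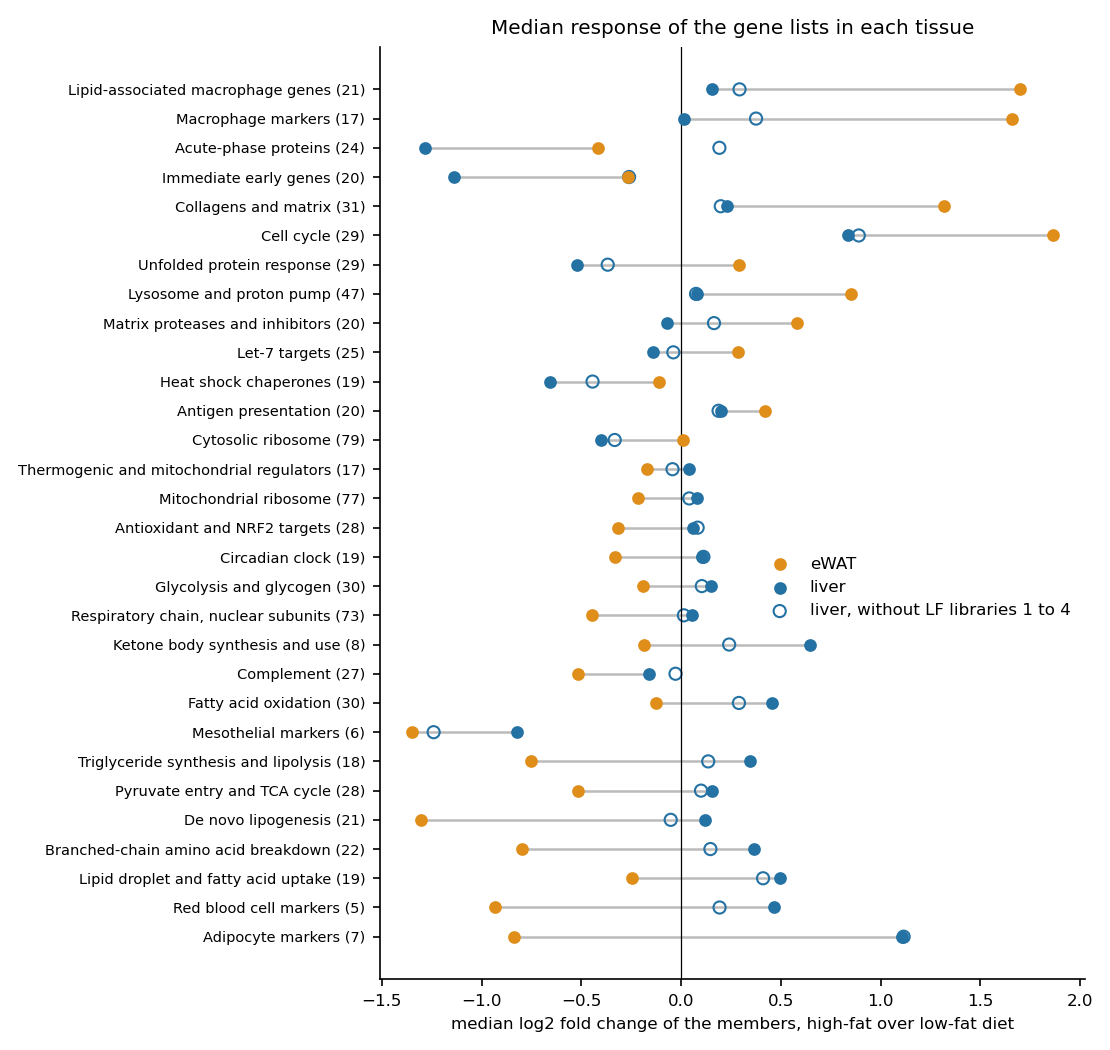
For each of the 30 lists (number of shared members in brackets) the filled points give the median log2 fold change (x axis, HF over LF) of its members in eWAT and in liver, and the open point the liver median without LF libraries 1 to 4, with lists ordered by their median difference. Lipid-associated macrophage and macrophage genes have the highest eWAT medians beside the cell cycle, and metabolic lists have negative eWAT and positive liver medians. The acute-phase liver median moves from -1.28 to 0.19, at least in part because the libraries left out were picked by acute-phase genes.

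The genes of protein folding and protein synthesis went the other way, higher in eWAT relative to liver, with the larger movement in liver. The unfolded protein response, by which an overloaded endoplasmic reticulum raises its chaperones, had 24 of 29 members higher and none lower. In liver 19 of 29 fell and none rose (median -0.52), and in eWAT 10 rose and 2 fell (median 0.29). The liver count was 16 without liver LF libraries 1 and 2 and 0 without libraries 1 to 4, and the eWAT count that rose was 6 without the eWAT set. Without liver LF libraries 1 to 4, 14 of 29 were higher and the liver median was -0.37. The mean log2 level of the list was -0.95 to -0.34 in HF liver libraries and -0.22 to 0.27 in LF liver libraries, without overlap. Chaperone genes of this response are known to be switched on through the ER stress response element, bound by ATF6 with NF-Y. The sequence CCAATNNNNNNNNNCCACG, searched on both strands in the 250 bases before each RefSeq gene start (GRCm38.p6), was in 9 of the 24 members of the list with a promoter in the table (37.5%), against 35 of 27025 genes (0.13%) and 17 of 9963 shared genes (0.171%). The promoter sequences are RefSeq's, and a match describes the letters and not a bound site. The stretches of Hspa5 (chr2:34772005-34772063, plus strand), Creld2 (chr15:88819500-88819558, plus strand), Syvn1 (chr19:6046512-6046570, plus strand) and Canx (chr11:50325780-50325838, minus strand) are shown 5′ to 3′ on the gene's strand, with the element in capitals, because the first 3 had the largest called differences among the holders and Canx was the opposite one. Creld2 carries the element on the other strand.
Hspa5: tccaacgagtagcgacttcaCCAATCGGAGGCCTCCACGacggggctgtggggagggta
Creld2: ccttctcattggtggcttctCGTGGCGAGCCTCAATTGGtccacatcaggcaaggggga
Syvn1: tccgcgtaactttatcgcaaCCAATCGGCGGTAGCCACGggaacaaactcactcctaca
Canx: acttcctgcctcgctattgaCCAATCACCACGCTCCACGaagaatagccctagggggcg

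Hspa5, which encodes the master chaperone BiP, was at 1566 to 2755 CPM (median 1775) in LF liver and 671 to 1477 CPM (median 871) in HF liver, without overlap. In eWAT it was at 387 to 475 CPM (median 420.2) and 442 to 826 CPM (median 560.1), with overlap. The difference was 1.51 ± 0.27 (adjusted p = 0.000269), with -1.06 in liver and 0.45 in eWAT, and 1.22 without liver LF libraries 1 to 4. Creld2 had -1.55 in liver and 0.07 in eWAT, Syvn1, a ubiquitin ligase gene of protein quality control, -1.38 and -0.12, and Canx, the calnexin gene, -0.28 and 0.29. Of the 9 holders of the element 8 were called higher and 6 fell in liver (median difference 0.91). Of the 15 members with a promoter and no match, 12 were called higher and 9 fell in liver (median difference 0.76).

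Among the members in which the search did not find the element, Edem1, which helps degrade misfolded proteins, was opposite without overlap in either tissue. It was at 269.6 to 435 CPM (median 356) in LF liver and 178 to 231 CPM (median 217) in HF liver, and at 61.6 to 118 CPM (median 104) in LF eWAT and 129.8 to 171 CPM (median 153) in HF eWAT. The difference was 1.38 ± 0.20 (adjusted p = 5.58e-05), and 1.03 without liver LF libraries 1 to 4. Sdf2l1, a co-factor of BiP, had the largest difference of the list's named members, 2.16 ± 0.38, with 1.36 in eWAT and -0.80 in liver. Dnajb11 (1.03 ± 0.17) and Atf6 (0.75 ± 0.13), which encodes the factor that binds the element, were opposite too.

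Heat shock chaperones had 9 of 19 members higher and none lower (4 of 19 without liver LF libraries 1 to 4). In liver 15 of 19 fell and none rose (median -0.66; 10 fell without liver LF libraries 1 and 2 and 5 without libraries 1 to 4), and the list's mean log2 level was -0.83 to -0.42 in HF and -0.38 to 0.35 in LF liver libraries. In eWAT 2 rose and 3 fell (median -0.11). Bag3, a co-chaperone gene, was liver-limited: 77.5 to 159 CPM (median 102) in LF liver and 42.1 to 65.4 CPM (median 51.2) in HF liver, against 64.0 to 111 CPM and 70.6 to 96.9 CPM in LF and HF eWAT. Its difference was 1.16 ± 0.23 (adjusted p = 0.000640), and 0.80 without liver LF libraries 1 to 4. Stip1 (0.69 ± 0.13) was liver-limited and Ahsa1 (0.69 ± 0.12), an activator of HSP90, opposite.

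Cytosolic ribosomal protein genes fell in liver in 73 of 79 members, and none rose (median -0.40). Without LF libraries 1 to 4, which left 2 LF libraries in liver, 1 of 79 fell, and without libraries 1 and 2 alone 62 fell. The part of the smaller number of libraries in this loss was not tested. In eWAT 2 rose and 3 fell, and the eWAT median was 0.01, or -0.03 with upper-quartile scaling. The difference was higher for 52 of 79 and lower for none, and for 16 of 79 without liver LF libraries 1 to 4, where the liver median was -0.33. The list's mean log2 level was -0.48 to -0.29 in HF liver and -0.12 to 0.36 in LF liver libraries. Rpl13a, a large-subunit protein gene, was at 25.6 to 35.5 CPM (median 31.1) in LF liver and 19.7 to 22.9 CPM (median 21.1) in HF liver, and at 12.3 to 18.1 CPM and 16.6 to 25.7 CPM in LF and HF eWAT. Its difference was 0.92 ± 0.16 (adjusted p = 0.000185). Ribosomal protein genes have many near-identical pseudogenes, so their counts depend on how reads were assigned.

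**Figure D5:**
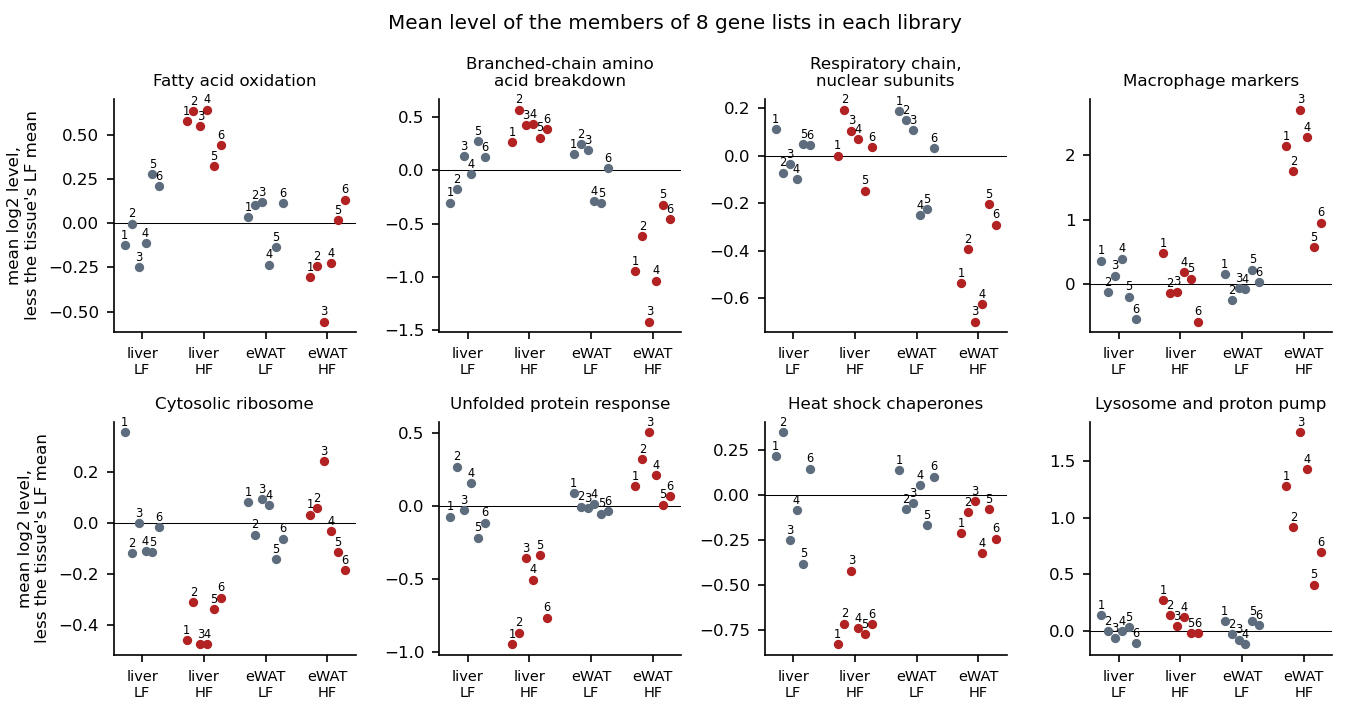
Each panel shows 1 gene list, with the mean log2(CPM + 0.5) of its members in each library less the mean of the LF libraries of that tissue on the y axis, and tissue and diet on the x axis (numbers are library numbers). In HF liver the ribosomal, unfolded protein and heat shock lists lie below every LF liver library, and in HF eWAT the macrophage and lysosome lists lie above every LF eWAT library with libraries 5 and 6 lowest.

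The acute-phase and immediate early lists changed without liver LF libraries 1 to 4, the latter largely without libraries 1 and 2 alone. Acute-phase genes, which liver secretes in inflammation, had 12 of 24 members higher and 2 lower, with liver and eWAT medians of -1.28 and -0.42. Without those libraries the counts were 0 higher and 3 lower, and the median difference went from 1.57 to -1.36. They were set apart by Mt2 and the summed acute-phase genes, so this move follows at least in part from how they were picked. Without the eWAT set the eWAT median was 0.35. Mt2 was at 1.17 to 541 CPM (median 477) in LF liver and 2.17 to 12.6 CPM (median 7.52) in HF liver. Lbp, which encodes the lipopolysaccharide-binding protein, rose in eWAT from 100.3 to 284 CPM (median 156) to 242 to 543 CPM (median 419), and its liver value went from -1.29 to 0.22 without the 4 libraries. Immediate early genes had 9 of 20 members higher and none lower (1 of 20 without liver LF libraries 1 to 4 and 4 of 20 without libraries 1 and 2). In liver 13 fell, and 2 fell without libraries 1 and 2. The list's mean log2 level was 1.59 and 0.88 in liver LF libraries 1 and 2, and -1.17 to -0.38 in the other LF libraries. Fos, a first-wave transcription factor gene, had 2.01 in eWAT and -2.09 in liver, or -0.12 in liver without the 4 libraries. Gadd45b, a stress-induced growth arrest gene, went from -3.32 to 0.04 in liver.

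Circadian clock genes, whose level depends on the hour of collection, which the labels do not give, had 9 of 19 members lower and 3 higher. In liver 7 rose and 4 fell, and in eWAT 7 fell and none rose. No member's liver response passed without liver LF libraries 1 to 4, 3 rose and 3 fell in liver without libraries 1 and 2, and 4 fell in eWAT without the eWAT set. Without liver LF libraries 1 to 4 the counts were 4 lower and 0 higher, and without the eWAT set 8 lower and 4 higher. Per3, a period gene, was at 3.11 to 32.1 CPM (median 18.9) in LF liver and 46.5 to 52.9 CPM (median 48.6) in HF liver, and at 20.4 to 49.2 CPM and 11.6 to 32.3 CPM in LF and HF eWAT, a difference of -2.39 ± 0.53 (-1.81 without liver LF libraries 1 to 4). Arntl, which encodes the activator BMAL1, had 1.77 ± 0.36 and was liver-limited, with -1.41 in liver and 0.36 in eWAT. Hlf, a clock output gene, was opposite (-2.21 ± 0.48).

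Macrophage genes were mostly eWAT-limited. Of 17 shared macrophage markers, 13 were higher and none lower (7 of 17 without liver LF libraries 1 to 4), with medians of 1.66 in eWAT and 0.02 in liver, the latter -0.02 when each tissue was scaled alone. The summed markers were at 779 to 1203 CPM in LF eWAT and 1548 to 7818 CPM in HF eWAT, and at 289 to 461 CPM and 300 to 510 CPM in LF and HF liver. Cd68, a macrophage lysosomal glycoprotein gene, was at 22.9 to 28.6 CPM (median 25.4) in LF eWAT and 59.4 to 656 CPM (median 292) in HF eWAT, with no overlap. In liver it was at 7.82 to 19 CPM (median 11.3) and 6.24 to 18.5 CPM (median 12.1). The difference was 3.59 ± 0.56, and 3.22 without liver LF libraries 1 to 4. Adgre1, the F4/80 antigen gene, had 2.97 ± 0.53, and Itgam, which encodes CD11b, was opposite, with 1.83 in eWAT and -1.46 in liver, or 0.04 in liver without the 4 libraries.

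Genes known from lipid-associated macrophages, which gather round dying adipocytes, had 17 of 21 members higher and 1 lower (12 and 0 without liver LF libraries 1 to 4), with medians of 1.70 in eWAT and 0.16 in liver. Trem2, the lipid-sensing receptor gene of these cells, was at 2.23 to 4.62 CPM (median 4.13) in LF eWAT and 24.6 to 399 CPM (median 173) in HF eWAT. In liver it was at 0.950 to 2.28 CPM (median 1.72) and 1.16 to 6.41 CPM (median 1.66), so the groups overlapped there. Its difference was 4.99 ± 0.81 (adjusted p = 0.000129). Mmp12, the macrophage elastase gene, was at 1.46 to 2.79 CPM (median 2.17) in LF eWAT and 83.6 to 1555 CPM (median 393) in HF eWAT, a difference of 6.85 ± 1.17 (5.34, adjusted p = 0.128, without liver LF libraries 1 to 4). Lgals3, the galectin-3 gene, was at 44.2 to 93.9 CPM (median 76.2) and 212 to 1988 CPM (median 751), a difference of 3.86 ± 0.58.

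The lysosome and its proton pump had 32 of 47 members higher and none lower, and 23 of 47 without liver LF libraries 1 to 4. In eWAT 40 of 47 rose and none fell (median 0.85), and in liver 4 rose and 2 fell (median 0.08), none of them without liver LF libraries 1 to 4. The list's mean log2 level was 0.41 to 1.76 in HF eWAT and -0.12 to 0.09 in LF eWAT, with HF libraries 5 and 6 the lowest of the HF libraries. Ctss, the cathepsin S gene of antigen-presenting cells, was at 33.7 to 47.5 CPM (median 39.3) in LF eWAT and 130.0 to 1068 CPM (median 453) in HF eWAT, a difference of 3.54 ± 0.47. Tcirg1, a proton pump subunit gene, had 2.26 ± 0.37, and Atp6v1b2, another, 1.54 ± 0.25. The E-box letters CACGTG, bound by TFEB and by clock factors among others, were in the 250 bases before the start of 11 of 35 lysosomal genes with a promoter (31.4%) and of 5 of 16 clock genes (31.2%), against 6.86% of all genes and 10% of shared genes.

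Antigen presentation rose in eWAT in 15 of 20 members and in liver in 3, with 10 of 20 higher (2 higher and 1 lower without liver LF libraries 1 to 4). H2-DMb1, a peptide-loading gene of class II, had a difference of 1.75 ± 0.40, and Psmb10, of the immunoproteasome, 0.80 ± 0.16. Complement had 10 of 27 members higher (37.0%, against 19% of all shared genes) and 6 lower (22.2%, near the 22.0% of all shared genes). Its median difference of -0.55 became 1.01 without the eWAT set, with 13 higher and 3 lower. C3ar1, the receptor for the C3a fragment, had 3.45 ± 0.65 and was eWAT-limited, and Masp1, a lectin pathway protease gene, had -1.75 ± 0.31.

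Collagens and other matrix genes rose in eWAT in 26 of 31 members and fell in none (median 1.32), and 1 rose and 1 fell in liver (median 0.23), neither of which passed without liver LF libraries 1 to 4. The difference was higher for 16 of 31, and for 5 of 31 without liver LF libraries 1 to 4. Col6a3, which encodes a collagen VI chain rich in fat, was at 87.1 to 142 CPM (median 105) in LF eWAT and 266 to 502 CPM (median 394) in HF eWAT, without overlap. In liver it was at 10.4 to 35.0 CPM (median 17.3) and 10.8 to 35.0 CPM (median 17). The difference was 1.85 ± 0.38, and 1.59 without the 4 liver libraries. Fn1, the fibronectin gene, had 1.44 ± 0.36. Matrix proteases and their inhibitors had 6 of 20 members higher and none lower (1 and 1 without the 4 libraries), with Mmp14 at 1.19 ± 0.32 and the collagen chaperone gene Serpinh1 at 1.32 ± 0.28.

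Cell cycle genes rose in eWAT in 26 of 29 members and in liver in 15 of 29, with none falling (medians 1.87 and 0.84). The liver count was 9 without liver LF libraries 1 and 2 and 0 without libraries 1 to 4, where 26 still rose in eWAT. The difference was higher for 14 of 29, and for 5 of 29 without liver LF libraries 1 to 4. Rrm2, which makes deoxynucleotides, was at 1.38 to 3.28 CPM (median 1.87) in LF eWAT and 6.76 to 19.1 CPM (median 11.8) in HF eWAT. In liver it was at 7.91 to 20.8 CPM (median 11.7) and 12.5 to 19.9 CPM (median 15.6), with overlap, and the difference was 2.32 ± 0.35. Birc5, a mitotic gene, rose in both, by 2.84 in eWAT and 0.98 in liver. Of the targets of let-7, a microRNA family that restrains growth, 10 of 25 were higher and 2 lower (4 and 1 without the 4 liver libraries). Hmga1, a chromatin protein gene, had 2.13 ± 0.51 and was eWAT-limited. Dicer1, which processes microRNA precursors, had -0.06 ± 0.11 and was not called.

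Glycolysis and glycogen genes were lower in 14 of 30 members and higher in 4, and lower in 8 without the eWAT set and in 3 without liver LF libraries 1 to 4. Gys1, the glycogen synthase gene of fat and muscle, had -1.34 ± 0.29, and Gbe1, the branching enzyme gene, -1.55 ± 0.28, both eWAT-limited. Antioxidant genes were lower in 13 of 28 members and higher in 5, and lower in 8 without the eWAT set and in 6 without the 4 liver libraries. Hmox1, which breaks down haem, was opposite: 26.2 to 44.7 CPM (median 29.9) in LF eWAT and 41.6 to 152 CPM (median 110.3) in HF eWAT, with 22.3 to 132 CPM and 19.8 to 36.9 CPM in LF and HF liver. Its difference of 2.85 ± 0.50 was 1.45 without the 4 liver libraries, where the liver value went from -1.14 to 0.26. Gpx3, a secreted glutathione peroxidase gene, had -1.73 ± 0.33, and Sod1, the cytosolic superoxide dismutase gene, -0.87 ± 0.18. Mesothelial markers had 2 of 6 members lower, Krt8 and Krt18, and 0 of 6 without the eWAT set. Both were also high in LF liver, at 188 to 883 CPM and 175 to 651 CPM, so they do not mark mesothelium alone. Upk3b and Wt1, of the same list, were not called. Red blood cell markers had 4 of 5 lower, and 0 of 5 without liver LF libraries 1 to 4.

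The eWAT-limited genes whose liver interval lay between log2 changes of -1 and 1 were led, in the upward direction, by F7, Cd300c2, Hk3, Cd84 and Mpeg1. F7 encodes coagulation factor VII, a liver product. It was at 1.14 to 2.83 CPM (median 1.60) in LF eWAT and 11.6 to 99.1 CPM (median 36.9) in HF eWAT, and at 126 to 198 CPM (median 162) in LF liver and 100 to 176 CPM (median 157) in HF liver. The difference was 4.64 ± 0.51 (adjusted p = 5.98e-06), with a liver value of -0.10 (95% interval -0.78 to 0.57). Mpeg1, which encodes a pore-forming protein of macrophages, was at 25.2 to 31.5 CPM (median 26.4) in LF eWAT and 92.3 to 690.2 CPM (median 320.3) in HF eWAT, and its difference was 3.75 ± 0.52. Cd300c2 (4.05 ± 0.60) and Cd84 (3.96 ± 0.57) encode receptors of white blood cells, and Hk3 (4.04 ± 0.57) a hexokinase of white blood cells that overlaps Unc5a on the other strand. The eWAT groups of these 5 genes did not overlap.

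In the downward direction the eWAT-limited genes were led by Tst, Agt, H2-Q10, Net1 and Gsta4. Net1, which encodes an activator of RhoA, was at 157 to 345 CPM (median 324) in LF eWAT and 38.7 to 52.1 CPM (median 43.5) in HF eWAT, while in liver it was at 66.0 to 106 CPM (median 88.8) and 71.3 to 86.5 CPM (median 81.1). Its difference was -2.51 ± 0.24 (adjusted p = 1.2e-06) and its liver interval -0.48 to 0.21. Tst, the mitochondrial rhodanese gene, was at 23.8 to 81.7 CPM (median 49.5) in LF eWAT and 5.73 to 9.83 CPM (median 7.02) in HF eWAT, a difference of -3.20 ± 0.34. Agt, the angiotensinogen gene, which both hepatocytes and adipocytes express, was at 234 to 474 CPM (median 318) and 15.2 to 112 CPM (median 71.2) in LF and HF eWAT, a difference of -2.67 ± 0.46. Gsta4, which clears lipid aldehydes, had -2.33 ± 0.50. H2-Q10, a secreted class I gene, had -2.67 ± 0.43, and its near-identical relatives in the class I family make its counts uncertain.

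Liver-limited genes that fell in liver, with an eWAT interval between -1 and 1, were led by Pfkfb3, Psd, Atg16l2, Nfil3 and Zbtb7c. Pfkfb3, which makes the activator of glycolysis fructose 2,6-bisphosphate, was at 93.0 to 180.3 CPM (median 104) in LF liver and 11.8 to 47.4 CPM (median 32.9) in HF liver, without overlap. In eWAT it was at 389 to 601 CPM (median 482) and 295 to 893 CPM (median 473). The difference was 2.12 ± 0.39 (adjusted p = 0.000361), and 1.89 without liver LF libraries 1 to 4. Atg16l2, an autophagy gene family member, was at 45.9 to 139 CPM (median 122) in LF liver and 12.7 to 30.6 CPM (median 25.9) in HF liver, and its difference went from 1.97 ± 0.36 to 0.91 without those libraries. Psd (2.12 ± 0.57) and Nfil3 (1.95 ± 0.47), a clock and immune repressor gene, went to 0.01 and 0.44. Zbtb7c had 1.93 ± 0.53 and 1.57. Pfkfb3, Psd and Atg16l2 overlap other genes, and with the strand setting of the counts unknown, reads of overlapping genes cannot be told apart.

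Liver-limited genes that rose in liver, with the same limit on the eWAT interval, were led by Pdzrn3, Sulf2, Rnf152, Rxrg and Fzd4. Pdzrn3, a ubiquitin ligase gene, was at 1.10 to 3.59 CPM (median 1.23) in LF liver and 6.48 to 17.4 CPM (median 12.1) in HF liver, without overlap, and at 31.8 to 48.6 CPM (median 40.1) and 26.2 to 46.5 CPM (median 35.1) in LF and HF eWAT. The difference was -2.98 ± 0.36 (adjusted p = 1.22e-05), and -2.41 without liver LF libraries 1 to 4. Sulf2, which edits heparan sulfate and overlaps Ncoa3 on the other strand, was at 3.97 to 17.5 CPM (median 5.99) and 12.5 to 52.6 CPM (median 39.7) in LF and HF liver, a difference of -2.57 ± 0.47. Rxrg, a retinoid receptor gene, was at 1.32 to 5.31 CPM (median 2.57) and 4.92 to 12.4 CPM (median 9.71), a difference of -2.0 ± 0.38. Rnf152 had -2.05 ± 0.42 and the Wnt receptor gene Fzd4 -1.68 ± 0.33. These 5 differences, without liver LF libraries 1 to 4, ran from -2.41 to -1.19.

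Among the 45 genes that moved in the same direction in both tissues by unequal amounts, Spc25, Steap2, Gpc1 and Paqr7 had the largest differences. Spc25, of the kinetochore, rose by 3.19 in eWAT and 0.93 in liver (difference 2.25 ± 0.39). Gpc1, which encodes the cell surface proteoglycan glypican 1, rose more in liver. It was at 9.35 to 25.8 CPM (median 13.6) in LF liver and 27.3 to 149 CPM (median 93.4) in HF liver, and at 25.8 to 73.4 CPM (median 30.6) and 82.4 to 128 CPM (median 97.2) in LF and HF eWAT, a difference of -1.18 ± 0.46 (adjusted p = 0.0444). Paqr7, a progestin receptor gene, was at 19.2 to 49.1 CPM (median 24.2) and 98.3 to 181 CPM (median 136) in liver, and at 18.8 to 37.6 CPM (median 21.2) and 48.5 to 57.5 CPM (median 53.8) in eWAT, a difference of -1.10 ± 0.33. Steap2, a metalloreductase gene, fell by 1.86 in eWAT and 0.67 in liver. Without liver LF libraries 1 to 4 the differences of Steap2, Gpc1 and Paqr7 did not pass (adjusted p from 0.0728 to 0.320), and that of Spc25 did (2.18).

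Mest, an imprinted gene of fat expansion, rose in eWAT by 2.33 and had 1.01 in liver, and its difference of 1.32 ± 0.68 did not pass (adjusted p = 0.122).

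Of the 147 genes named, 38 kept the sign of their difference but no longer passed without liver LF libraries 1 to 4. Those given above without that value include Cd36 (adjusted p = 0.0782), Cidec (0.105), Fasn (0.149), H2-DMb1 (0.110), Fn1 (0.0631), Mmp14 (0.0859), Itgam (0.175), Arntl (0.0543) and Hlf (0.0511), all adjusted p-values of edgeR's test.

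The 14 lists not described in detail, among them the proteasome, cholesterol synthesis, interferon-induced genes, endothelial and lymphocyte markers, had 0.0% to 26.3% of their members higher and 0.0% to 31.2% lower, with median differences from -2.53 for hepatocyte markers to 0.62 for the integrated stress response.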

How the data were processed

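RNA from liver and eWAT was sequenced on an Illumina NovaSeq, per the labels' protocols. The authors deposited, for each tissue, a table of raw read counts per gene, in whole numbers. In both tables every gene exceeded 0.5 CPM in 6 or more of the 18 libraries. Per the submitters' processing notes STAR and GRCm38.p6 were used. The version of STAR, the counting tool, the annotation and the strand setting: not given in the sources used here. Tables named RPKM were not used, because the gene lengths they imply for 1 gene differ between libraries (median ratio of longest to shortest 97.6 in liver).

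Counts of the 13206 shared genes in 24 libraries (10311165 to 30101978 each) were fitted with edgeR 4.0.16 (R 4.3.3) by the robust quasi-likelihood test, with TMM factors and 1 term for each of the 4 groups. The 3 contrasts, the interaction and the response in each tissue, were adjusted by Benjamini-Hochberg over all 13206 genes, at 0.05. SE is the log2 fold change divided by the square root of F. Printed levels are TMM-normalised CPM over the shared genes; sums of markers and library checks are CPM of each tissue's whole table. No pair of libraries within a group agreed within sampling noise. The interaction test was run on simulated counts with the same dispersion for every gene and no libraries set apart. That check does not cover the sets of libraries that stood apart here.

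Members and gene lists were chosen with earlier results of these data known. Genes were named by rule. With a mean of at least 4 CPM in both tissues, the rule took the 6 opposite genes with the largest difference in each direction, the 5 leading genes in each of 4 tissue-limited classes whose 95% interval in the other tissue lay between -1 and 1, and the 4 leading genes with the same direction. It added up to 4 members per list with the smallest interaction p, and a fixed set. The 4 CPM minimum was written for the rule as a whole but was not applied to these additions, and 18 of the 147 named genes lie under it. Results of some genes that the rule took are not reported here. Predicted genes, Mup genes, pseudogenes and immune receptor segments were left out of the first 3 kinds. The members of the unfolded protein list that hold the ER stress response element were added after their values were seen. Gene positions are from GENCODE M21 and promoters from RefSeq, both on GRCm38.

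Alternatives were other scalings, DESeq2 1.42.0, limma 3.58.1 with voom, other filters, thresholds of 0.01 and of a log2 difference of 1, a replicate block, all 36 libraries, each library left out, and the sets of libraries that stood apart left out.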

Additional observations from a re-analysis of the deposited data

Results flagged for a closer look

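The high-fat response differed between the tissues, by the test of the difference itself, for 5413 genes. Among them are 11 opposite genes named by rule: Dhrs9 (8.11), Il1rn (7.12), Saa3 (6.97), Atf3 (6.01), Fabp5 (4.90) and Ccl2 (4.73), higher in eWAT relative to liver on the log2 scale, and Cfd (-8.40), Nt5e (-4.49), Tpm2 (-4.45), Vnn1 (-3.94) and Mycl (-3.81), lower. Another 128 named genes outside these 11 differed by the same test, against 41.0% of all shared genes. Apart from the fixed set, named genes were picked by the size or p-value of this difference, so that count follows from the rule.

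A single library lay far from the other 5 of its group in 12 of the 192 groups checked, with the gap measured on log2(CPM + 0.5). Chance alone gives this in about 5 percent of groups. In liver the far samples were Cfd in LF library 5 (6.03 CPM, highest), Pdzrn3 in LF library 5 (3.59 CPM, highest), Hk3 in LF library 4 (8.84 CPM, highest), Trem2 in HF library 1 (6.41 CPM, highest), Agt in HF library 2 (1267 CPM, highest) and Psd in HF library 5 (3.39 CPM, lowest). In eWAT they were Saa3 in LF library 1 (16.5 CPM, highest), Tpm2 in LF library 3 (463 CPM, highest), Trem2 in LF library 2 (2.23 CPM, lowest), Rnf152 in LF library 4 (4.36 CPM, lowest), Fabp5 in HF library 2 (134.5 CPM, lowest) and Atg16l2 in HF library 3 (11.8 CPM, highest).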

How the results depend on the processing

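The number of differing genes stayed within 1.5 times the 5413 reported under every scaling, tool and filter tried, from 4314 to 6019, and those of opposite, eWAT-limited, liver-limited, liver and eWAT genes did so too. Their share called higher ran from 38.3% with upper-quartile factors to 52.6% with TMM within each tissue, against 46.2%. Leaving out liver LF libraries 1 to 4 gave 1983 differing, 16 opposite, 1672 eWAT-limited, 66 liver-limited and 137 liver genes, with 2 LF libraries left in liver. Without liver LF libraries 1 and 2 there were 322 opposite, 690 liver-limited and 1644 liver genes, and without the eWAT set 455 opposite genes. Without both sets (liver LF libraries 1 to 4 and the eWAT set) the counts were 1344, 13, 1112, 42 and 112. At an adjusted p of 0.01 they were 3354, 209, 1786, 825 and 1836, with 3562 for eWAT, and at a log2 difference of at least 1 they were 2232, 392, 1328 and 399 for the first 4. What gives the moves without sets of libraries was not tested, and neither was the part of the smaller number of libraries in them. The lower counts at the stricter thresholds follow from those thresholds. Leaving out each library in turn gave 4847 to 5674 differing, 493 to 856 opposite, 2290 to 2958 eWAT-limited, 1072 to 1650 liver-limited, 2604 to 3981 liver and 4678 to 5718 eWAT genes.

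With a replicate block, which was applied to the test of the difference alone, there were 4947 differing genes. The tissue responses were kept from the fit without a block. With them there were 729 opposite, 2459 eWAT-limited and 1324 liver-limited genes, so these counts do not test the tissue responses with a block. Same-numbered liver and eWAT libraries correlated at -0.06 to 0.167 (HF) and 0.041 to 0.152 (LF) and matched best in 3 of 6 numbers in each diet, a hint from the data. Since the labels do not tie the numbers to a mouse and not every pair correlated, the libraries were not treated as paired, and whether they are is not known. Among named genes the difference changed sign for Mt2 (-1.78 without liver LF libraries 1 to 4 and -2.09 without both sets), a gene used to pick those libraries. The others that changed sign were not called: Scd1 (-0.26 without liver LF libraries 1 to 4, -0.25 without 1 and 2, -0.042 without the eWAT set, -0.44 without both, -0.0862 to 0.66 with each library left out), Pdk4 (-0.46, -0.46 and -0.51 without liver LF libraries 1 to 4, 1 and 2, and both sets), Wt1 (0.24 without liver LF libraries 1 to 4 and 0.0088 without both sets) and Upk3b (-0.27 to 1.76 with each library left out).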

Other observations

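The 12 libraries of mice switched from high-fat to low-fat diet for the last 9 weeks enter no comparison here. Levels of the opposite genes in them, scaled over all 36 libraries, are given as values without a test. In liver, Fabp5 was at 49.2 to 312 CPM (median 177) in the switched libraries, beside 49.5 to 272 CPM (median 169) in LF and 4.12 to 25.1 CPM (median 10.9) in HF libraries. Mycl in liver was at 24.1 to 34.7 CPM (median 26.8), beside 2.73 to 19.3 CPM in LF and 21.8 to 32.4 CPM in HF libraries. Vnn1 in liver was at 49.4 to 65.4 CPM (median 63.9), between medians of 13.3 CPM in LF and 139 CPM in HF libraries. Saa3 in liver was at 1.66 to 5.91 CPM (median 2.52), lower than the 4 high LF libraries and near the HF range of 4.29 to 9.41 CPM.

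In eWAT, Cfd was at 2351 to 7701 CPM (median 3727) in the switched libraries, between medians of 8834 CPM in LF and 577 CPM in HF libraries. Dhrs9 was at 0.807 to 4.44 CPM (median 1.25), beside 0.0923 to 1.24 CPM in LF and 2.42 to 45.4 CPM in HF libraries. Mycl was at 7.34 to 33.5 CPM (median 26.7), a median close to that of LF libraries (26.6 CPM) and above that of HF libraries (5.22 CPM).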
